A study of Homo sapiens with 16 samples.

Results

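The dual-specificity phosphatase genes DUSP1, DUSP2, DUSP4, DUSP5, DUSP6, DUSP8, DUSP10 and DUSP16 were examined for binding of p65 (RELA), the transactivating subunit of NFκB. These 8 genes were taken as a named list and not for their signal, although earlier results of these data were known when they were named. Of them, 7 are among the 19535 protein-coding genes with signal in the same kind of window. For each gene, every 200-bp bin was read over a window that reached 50 kb beyond its start and 10 kb beyond its end, introns included. The DUSP8 window was not analysed here, since the tracks used hold no values over it, which left 7 genes and 2953 bins. A bin was listed in a group when the mean of its 3 ChIP libraries was at least 2 and at least 4 times the input of the same line and condition. Listed bins no more than 1 bin apart were joined into a site, and the bin of a site with the highest mean over the 12 ChIP libraries is its summit bin. This gave 18 listed bins in 11 sites.

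HT29 and SW480 are epithelial cell lines from human colon adenocarcinomas. Each had been stably transfected either with an empty vector (mock) or with estrogen receptor beta (ERβ), and the 4 groups, HT29 mock, HT29 ERβ, SW480 mock and SW480 ERβ, hold 3 p65 ChIP-Seq libraries and 1 input library each. All groups share treatment with TNFα at 30 ng/ml for 30 min, crosslinking with disuccinimidyl glutarate and formaldehyde, medium with charcoal-stripped serum and no added estradiol, so no unstimulated or ligand-treated state was compared. Each group is 1 transfected derivative of its line, and the effect of ERβ cannot be told apart from other differences between derivatives.

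Dual-specificity MAP kinase phosphatases remove phosphate from both the threonine and the tyrosine of the activation loop of ERK, JNK and p38, and so switch these kinases off. Several of the genes are immediate-early or delayed-early genes that the kinases themselves induce, which makes the enzymes negative feedback regulators of stress and growth factor signaling. TNFα activates both the MAP kinase cascades and NFκB, and p65 enters the nucleus within minutes of stimulation.

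Signal is tag density per base pair, scaled by the authors to a library of 10 M tags. Over the 19580 bins of the genome that carried signal above input, the median signal was 0.961 to 2.46 in the ChIP libraries and 0.430 to 0.602 in the inputs. Replicate 1 of both HT29 groups stood apart, with medians of 2.46 and 2.12 against 1.14 to 1.37 in the other 4 HT29 libraries. In SW480 the medians were 0.961, 1.12 and 1.21 in mock and 1.46, 2.41 and 2.30 in ERβ cells, so the whole ChIP enrichment was higher with ERβ. The tracks average over all cells of a library, and fewer cells with p65 at a site cannot be told apart from less p65 per cell. The study calls the replicates biological, but the labels do not say that they came from separate cultures, so p-values refer to these libraries. At the sites, the SE of the limma fits is drawn strongly to the variance of bins of like signal across the genome. Where the libraries of a site spread more widely than that, its p-value understates their spread. The coverage of the coding exons of ESR2, the gene of ERβ, over that of its introns was 3.98 to 6.61 in HT29 ERβ and 2.35 to 2.99 in SW480 ERβ, against 1.07 to 1.33 and 1.30 to 1.61 in the mock libraries. This matched the labelled transfection in all 12 libraries. It is coverage of DNA and does not measure the level of the receptor, which the study reports as higher in SW480 than in HT29. The labels list the antibody and TNFα also for the inputs, and the ERβ inputs were read as inputs by their titles. The study credits the ERβ input controls to a separate series, so whether they were prepared alongside these ChIP libraries is not known. Over the enriched bins the SW480 inputs had medians of 0.602 in mock and 0.447 in ERβ cells. The limit of 4 times input was thus generally lower in SW480 ERβ.

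The sequences that lie under the summits are shown because they differ in kind between the sites. The κB consensus, the AP-1 element TGANTCA, the RUNX element TGTGGT, the CRE core TGACGT and the CArG box, the binding element of serum response factor, were searched on both strands of the 200 bases about each summit. The CArG box was added after the DUSP5 sequence was seen. Capitals mark the matched motif, and the sequences are the plus strand of GRCh38, written 5′ to 3′.
DUSP16 intron site, chr12:12539541-12539590, κB: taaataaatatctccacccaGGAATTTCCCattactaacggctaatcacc
DUSP1 downstream site, chr5:172765483-172765532, κB: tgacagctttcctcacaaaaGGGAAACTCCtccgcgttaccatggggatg
DUSP1 promoter-proximal site, chr5:172772373-172772422, κB: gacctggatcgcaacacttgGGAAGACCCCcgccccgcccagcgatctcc
DUSP1 distal upstream site, chr5:172782738-172782784, AP-1: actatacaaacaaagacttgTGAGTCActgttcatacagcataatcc
DUSP6 distal upstream site, chr12:89374300-89374346, AP-1: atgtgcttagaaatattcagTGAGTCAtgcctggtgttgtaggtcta
DUSP5 promoter, chr10:110497807-110497906, CArG: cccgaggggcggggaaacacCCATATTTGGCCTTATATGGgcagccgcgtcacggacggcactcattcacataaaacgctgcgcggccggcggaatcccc

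The κB match of DUSP16 lay 4 bp from the base with the highest mean density of the site, and that of the DUSP1 downstream site 14 bp from it, whereas the match of the DUSP1 promoter-proximal site lay 95 bp away, at the edge of its window. A κB match was present in 4 of the 11 sites (36.4%), against 33.2% of the 19580 enriched bins of the genome and 3.54% of the 2935 unlisted bins of the 7 windows. The bins lie on a fixed grid and are not centred on a summit, so the motif shares of sites and bins are not like for like. An AP-1 match was present in 2 of the 11 sites, against 11.7% of the enriched bins and 6.10% of the unlisted bins. The DUSP5 promoter held 2 CArG boxes in direct succession, at chr10:110497827-110497836 and chr10:110497837-110497846, where 0.930% of the enriched bins and 0.852% of the unlisted bins hold a box. The DUSP2 site held 1 RUNX element, which 13.8% of enriched and 14.2% of unlisted bins also hold, and no site held the CRE core, found in 2.93% and 1.81% of those bins. Both DUSP6 sites nearest to the gene held no match to any of the 5 motifs. A match describes the letters in the window and is not evidence of a bound factor, and no match says only that these letters are not there.

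SW480 ERβ cells had the most listed bins around the DUSP genes and SW480 mock cells the fewest. The counts were 8 bins in HT29 mock, in the windows of DUSP1, DUSP6 and DUSP16, and 5 in HT29 ERβ, in DUSP1 and DUSP16. SW480 mock had 1 listed bin, in DUSP1, and SW480 ERβ had 13, in DUSP1, DUSP2, DUSP4, DUSP5 and DUSP6. The numbers of genes with a listed bin were therefore 3, 2, 1 and 5 of 7. Across all protein-coding genes the shares with a listed bin were 22.0% in HT29 mock, 16.0% in HT29 ERβ, 7.73% in SW480 mock and 32.3% in SW480 ERβ, and across all bins of the genome 0.0440%, 0.0292%, 0.0108% and 0.0688% were listed. The order of the 4 groups among the DUSP genes was thus that of the genome. The lowest listed value was 2.05, in a DUSP6 bin of HT29 mock. Just outside, a bin beside the DUSP1 summit 11.5 kb upstream had a mean of 2.70 in HT29 ERβ over an input of 0.674, just under 4 times, and the DUSP6 bin 200 bp upstream had 2.39 in SW480 mock over an input of 0.767. Among bins listed in no group, a DUSP6 bin in SW480 ERβ reached 2.13 but 3.02 times input, and a bin at the far upstream end of the DUSP16 window reached 2.09 but 2.92 times input.

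**Figure D1:**
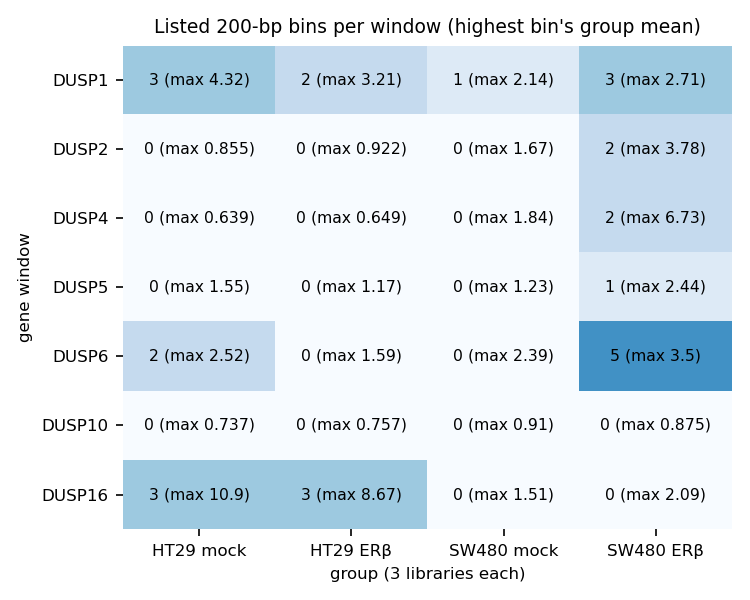
Number of listed 200-bp bins in the window of each analysed gene (rows) in each group (columns), with the highest group mean of any bin of that window (signal per bp at 10 M tags) in parentheses. DUSP16 had 3 listed bins in both HT29 groups and 0 in both SW480 groups, DUSP2, DUSP4 and DUSP5 had theirs in SW480 ERβ, and DUSP10 had 0 throughout.

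Of the 11 sites, 9 lay upstream of the start, 1 in an intron and 1 downstream of the gene, and 5 lay within 2 kb of the start. All 11 were nearer to the start of the DUSP gene than to that of any other protein-coding gene, and 6, at DUSP1, DUSP2 and DUSP6, lay inside an annotated long noncoding gene. The listing used the group means, so a site listed only through 1 group had to be high there. This was so for 7 sites, all of them listed in SW480 ERβ alone. They are the DUSP1 site 1.3 kb upstream, the DUSP2 site, both DUSP4 sites, the DUSP5 site and the DUSP6 sites 200 bp and 21.8 kb upstream. Listing on the mean over the 12 libraries, without regard to group, kept 7 bins in 5 sites: the DUSP16 intron site, the distal upstream sites of DUSP1 and DUSP4, and the 2 DUSP6 sites nearest to the gene. This listing still depends on height in a group, since the DUSP4 site passes it through SW480 ERβ and the DUSP16 site through HT29. The sites were thus chosen for their height in the libraries that are compared, and the tests at them carry that choice.

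**Figure D2:**
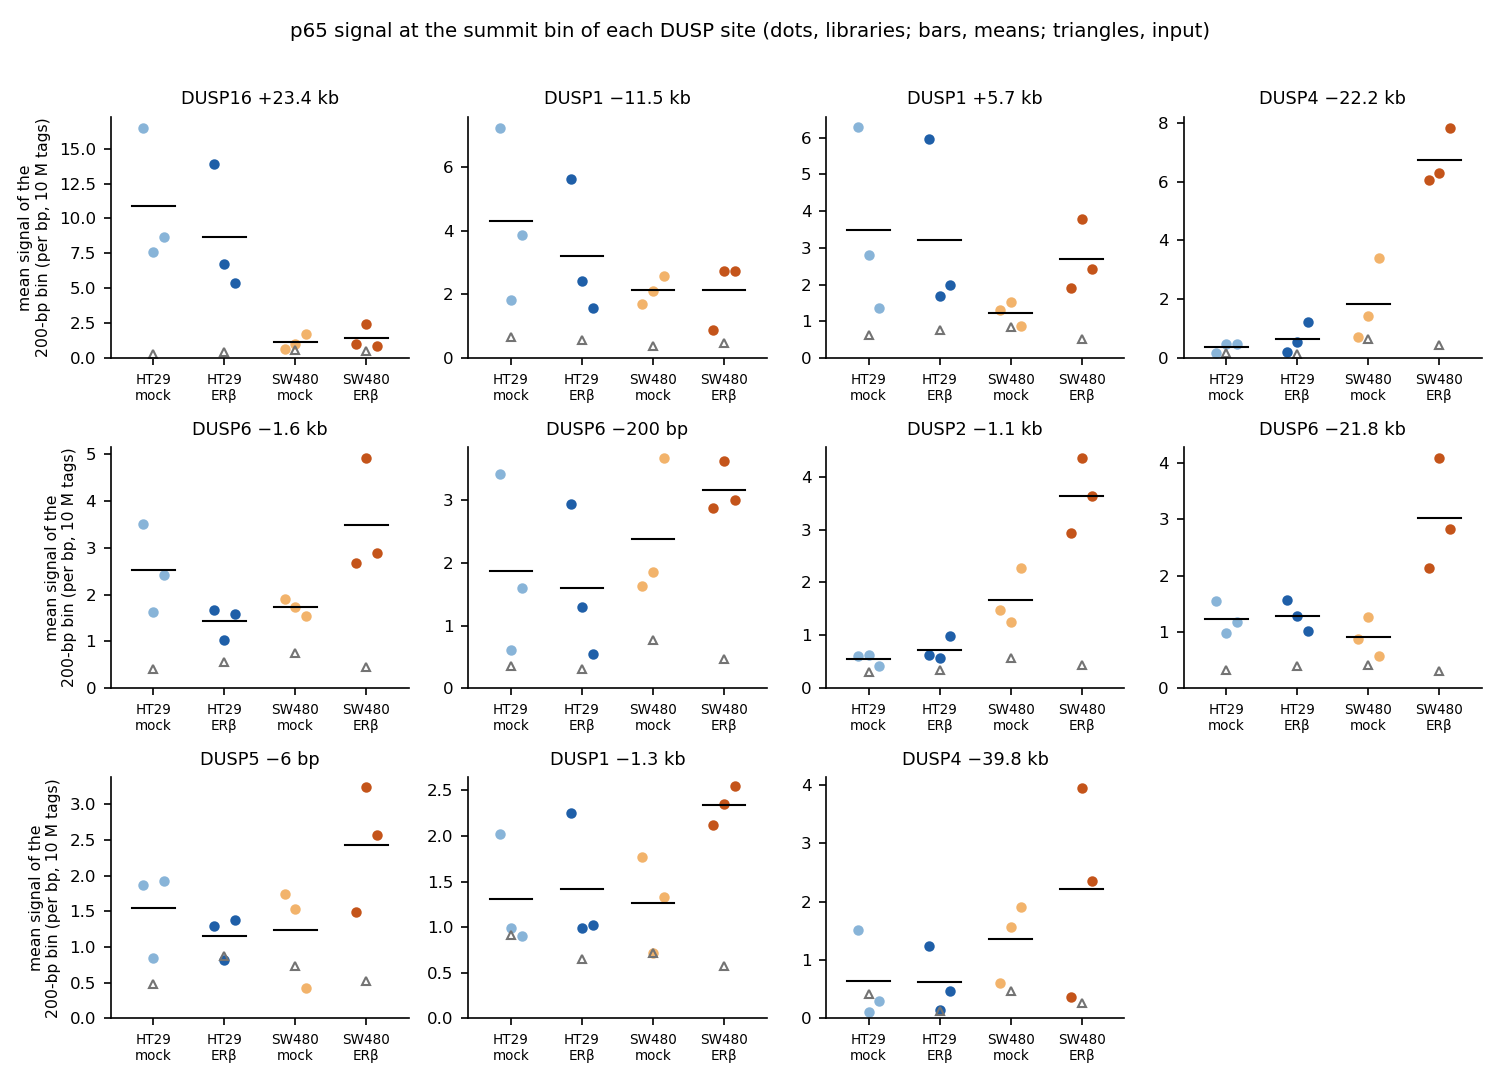
Signal of the summit bin of each of the 11 sites (per bp at 10 M tags, linear axes from 0), ordered by the mean over 12 libraries. Dots are the 3 libraries of a group, bars their mean and open triangles the input. DUSP16 is high in all 6 HT29 libraries and the DUSP4 site 22.2 kb upstream in the 3 SW480 ERβ libraries.

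DUSP16, which acts on JNK and p38, had the strongest site of the family, and it was among the highest bins of the genome in HT29 and below the listing limits in SW480. The site spans 600 bp of intron 1 (chr12:12539201-12539800, GRCh38), 23.4 kb downstream of the start of this 89.6-kb gene. Its summit bin (chr12:12539401-12539600) had signals of 16.5, 7.57 and 8.67 in HT29 mock and 13.9, 6.74 and 5.36 in HT29 ERβ, against inputs of 0.305 and 0.451. In SW480 mock the signals were 0.630, 1.01 and 1.69 and in SW480 ERβ 0.988, 2.46 and 0.872, against inputs of 0.534 and 0.480. Every HT29 library was thus above every SW480 library, and replicate 1 was the highest of each HT29 group. The mean of 10.9 ± 4.85 (SD, n = 3) in HT29 mock exceeded 99.5% of the enriched bins of the genome in that group, and the mean of 1.11 ± 0.538 in SW480 mock lay above 50% of them.

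The summit bin of DUSP16 was lower in SW480 than in HT29 by 2.45 on the log2(signal + 1) scale in mock cells (difference SW480 minus HT29 -2.45, SE 0.353, adjusted p = 6.5e-10, limma) and by 1.94 in ERβ cells (difference -1.94, SE 0.408, adjusted p = 2.6e-05). Both calls held when any 1 library was left out, with differences of -2.65 to -2.14 and -2.23 to -1.58, the smallest of them without replicate 1 of HT29, and adjusted p of at most 3.3e-05 and 0.0109 (limma). The site was listed in the HT29 groups alone, so these tests between the lines are not independent of that choice. The input over the whole DUSP16 window was 1.23 times as high in SW480 as in HT29. With each library divided by the input of its group over the window, the mean in SW480 mock was 0.0815 of that in HT29 mock. ERβ and mock cells overlapped in both lines at this site, although each HT29 ERβ library lay below the HT29 mock library of the same number. With the replicate number as a block in the fit, the HT29 difference was not called either (adjusted p = 0.221, limma). The difference, ERβ minus mock, was -0.33 (SE 0.497) in HT29 and 0.18 (SE 0.251) in SW480, neither past the test, and the difference between these 2 differences was 0.51 (SE 0.531, adjusted p = 0.468, limma).

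**Figure D3:**
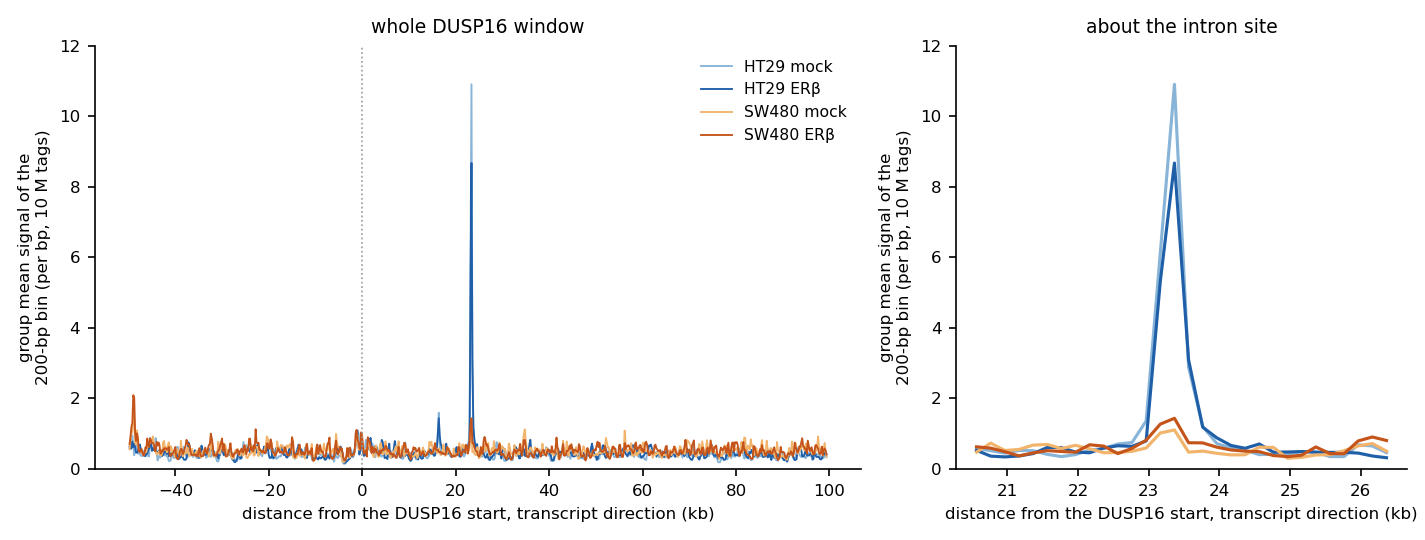
Group mean signal of each 200-bp bin (per bp at 10 M tags) against the distance from the DUSP16 start in transcript direction (kb), for the whole window (left) and about the intron site (right). A single peak, with bin means of 10.9 in HT29 mock and 8.67 in HT29 ERβ, stands in the 2 HT29 groups, and the SW480 groups reach 1.11 and 1.44 in that bin.

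DUSP4, a nuclear phosphatase of ERK and JNK, had its strongest site 22.2 kb upstream of the start, listed in SW480 ERβ alone. The summit bin (chr8:29372801-29373000) had signals of 0.161, 0.482 and 0.480 in HT29 mock and 0.202, 0.526 and 1.22 in HT29 ERβ. The signals were 0.717, 1.42 and 3.40 in SW480 mock and 6.06, 6.30 and 7.82 in SW480 ERβ, with inputs of 0.180, 0.130, 0.630 and 0.430 in the same order of groups. All 3 SW480 ERβ libraries lay above all 3 SW480 mock libraries, and the HT29 groups overlapped. The SW480 ERβ mean of 6.73 ± 0.956 exceeded 94.4% of the enriched bins of the genome in that group and was 3.65 times the SW480 mock mean (log2 difference 1.55, SE 0.305, adjusted p = 7.2e-05, limma). In HT29 the ERβ mean was 1.73 times the mock mean. On the log2(signal + 1) scale, which shrinks differences between such low signals, the HT29 difference was 0.23 (SE 0.162). This was the only site of the 11 at which the ERβ difference itself was called as larger in SW480 than in HT29 (1.32, SE 0.420, adjusted p = 0.0323, limma), and this call was lost without HT29 mock replicate 2 or 3, HT29 ERβ replicate 2, SW480 mock replicate 1 or 2, or SW480 ERβ replicate 2 or 3, with adjusted p = 0.00949 to 0.204 over the 12 omissions. The SW480 difference itself stayed called in all 6 omissions, at 1.24 to 1.91. Since the site was listed in SW480 ERβ alone, neither test is independent of that choice. With all libraries scaled to an equal median over the tested bins, the SW480 difference was 0.93 (adjusted p = 0.0185) and the difference of the differences 0.61 (adjusted p = 0.463, limma).

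The coverage of the DUSP4 window was itself lower in HT29: the inputs averaged 0.158 and 0.189 over the window in HT29 and 0.429 and 0.359 in SW480, 2.27 times as high. Comparisons between the lines at DUSP4 are therefore given also with each library divided by its group's input over the window. At the site 22.2 kb upstream, SW480 exceeded HT29 by 0.95 in mock cells and by 2.27 in ERβ cells on the log2 scale (adjusted p = 5.9e-04 and 3.7e-08, limma), and by 0.35 and 1.74 after this division, with no test. The weaker DUSP4 site, 39.8 kb upstream, had a called excess of 0.58 in SW480 mock (adjusted p = 0.0421, limma), which became -0.03 after division and was lost without HT29 mock replicate 2 or 3 or SW480 mock replicate 2 or 3. This site was also listed in SW480 ERβ alone, so its test is not independent of that choice. Its window held 2 overlapping κB matches. The window of the site 22.2 kb upstream held no match to any of the 5 motifs. The libraries of the weaker site spread widely, from 0.363 to 3.94 in SW480 ERβ and from 0.110 to 1.52 in HT29 mock. The other windows had input ratios between the lines of 0.897 to 1.23.

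DUSP6, a cytoplasmic phosphatase selective for ERK, had 3 sites, all upstream of the start. In SW480 the distal one, 21.8 kb upstream with an AP-1 element, had the largest ERβ difference of the 3. It was listed in SW480 ERβ alone, so its test is not independent of that choice. Its signals were 0.870, 1.27 and 0.570 in mock and 2.14, 4.09 and 2.82 in ERβ cells. In HT29 they were 0.971 to 1.55 in mock and 1.01 to 1.56 in ERβ cells. The SW480 ERβ libraries did not overlap with those of mock, and the mean was 3.35 times as high (log2 difference 1.07, SE 0.271, adjusted p = 0.00188, limma). The call held in all 6 omissions of 1 library, at 0.88 to 1.23, and was lost with equal medians over the tested bins (0.53, adjusted p = 0.176, limma). At the site 1.6 kb upstream the SW480 signals were 1.91, 1.73 and 1.55 in mock and 2.68, 4.93 and 2.89 in ERβ cells, again without overlap, but the difference of 0.69 (SE 0.285) gave an adjusted p = 0.0521, and 0.0111 with the replicate block, where it was called (limma). In HT29 the same bin had signals of 3.51, 1.62 and 2.43 in mock and 1.67, 1.04 and 1.59 in ERβ cells. Each ERβ library lay below the mock library of the same number. The difference of -0.51 (SE 0.379) did not pass the test, nor did it with the replicate block (adjusted p = 0.149, limma). The site 200 bp upstream overlapped between all groups, with group means of 1.88, 1.59, 2.39 and 3.17 in HT29 mock, HT29 ERβ, SW480 mock and SW480 ERβ.

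DUSP1, a nuclear phosphatase of p38, JNK and ERK and an early response gene, had the only site listed in all 4 groups, 11.5 kb upstream with an AP-1 element. Its signals were 7.25, 1.82 and 3.88 in HT29 mock, 5.62, 2.43 and 1.56 in HT29 ERβ, 1.71, 2.12 and 2.59 in SW480 mock and 0.876, 2.75 and 2.74 in SW480 ERβ. All groups overlapped and no comparison was called at this bin, although with equal medians over the tested bins it was called lower in SW480 ERβ than in HT29 ERβ (-0.73, adjusted p = 0.00357, limma). The SW480 ERβ minus mock difference of -0.07 (SE 0.281) was the only negative one of the 11 sites in that line. The site 5.7 kb downstream of the start holds the κB element. Its signals were 1.91, 3.80 and 2.41 in SW480 ERβ and 1.31, 1.51 and 0.873 in SW480 mock. The difference was 0.71 on the log2 scale (SE 0.273, adjusted p = 0.0378, limma). The call was lost without any 1 SW480 library other than ERβ replicate 1 and with equal medians over the tested bins (0.14, adjusted p = 0.793, limma). Of the 9 alternatives other than omissions, 5 kept the call. The site lies inside the long noncoding gene ENSG00000253736, so it is placed near DUSP1 by distance alone. In HT29 its signals were 6.28, 2.81 and 1.37 in mock and 5.95, 1.68 and 2.00 in ERβ cells, where replicate 1 alone exceeded every SW480 library. The DUSP1 site 1.3 kb upstream reached 2.34 ± 0.213 in SW480 ERβ and 1.27 to 1.42 in the other groups. Its SW480 difference was 0.58 (adjusted p = 0.0814, and 0.0303 with the replicate block, where it was called, limma). This site was listed in SW480 ERβ alone, so its test is not independent of that choice.

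DUSP2, a nuclear phosphatase best known from lymphocytes, had 1 site 1.1 kb upstream. It was listed in SW480 ERβ alone, so its tests are not independent of that choice. The signals of its summit bin (chr2:96146401-96146600) were 0.613, 0.634 and 0.411 in HT29 mock, 0.633, 0.573 and 0.983 in HT29 ERβ, 1.47, 1.26 and 2.28 in SW480 mock and 2.94, 4.36 and 3.63 in SW480 ERβ. The SW480 groups did not overlap with each other or with HT29, so the order was SW480 ERβ above SW480 mock above both HT29 groups, which overlapped. The difference, ERβ minus mock, was 0.81 (SE 0.285, adjusted p = 0.0242, limma) in SW480 and 0.15 (SE 0.196) in HT29. The SW480 call was lost without mock replicate 1 or 2 or ERβ replicate 2 or 3, with adjusted p = 0.00157 to 0.147 over the 6 omissions, and with equal medians over the tested bins, where the differences were 0.19 in SW480 (adjusted p = 0.695, limma) and 0.25 in HT29. SW480 exceeded HT29 by 0.77 in mock and 1.42 in ERβ cells (adjusted p = 0.0108 and 9.4e-05, limma), over inputs of 0.304 to 0.563, and the mock call was lost without replicate 3 of either line.

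DUSP5, a nuclear phosphatase selective for ERK, had its only site over the start itself, where the annotated start (chr10:110497907) lies in the middle of the summit bin and the CArG boxes lie just upstream. The signals were 1.86, 0.850 and 1.92 in HT29 mock, 1.30, 0.813 and 1.38 in HT29 ERβ, 1.74, 1.54 and 0.426 in SW480 mock and 1.497, 3.24 and 2.57 in SW480 ERβ. The groups of each line overlapped. The bin was listed in SW480 ERβ alone, at 2.44 ± 0.878 and 4.63 times input, so its tests are not independent of that choice. The ERβ minus mock difference of 0.64 (SE 0.274) in SW480 gave an adjusted p = 0.0587 (limma). With the replicate block it was called, at an adjusted p = 0.0163 (limma). DUSP10, which acts on p38 and JNK, had no listed bin, and the highest group mean in its window was 0.910, in SW480 mock, 1.10 times input.

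The comparison of ERβ with mock cells asks whether the receptor changes where and how strongly p65 binds. In HT29 no site was called, and 0% of the 19580 bins tested across the genome were called in either direction (0 bins by limma, with 245 at an unadjusted p under 0.05 and, with the replicate block, 10 called higher and 134 lower, none of them a DUSP site). The median difference over the 11 sites was -0.08 and over all tested bins -0.13. In SW480, 4 of the 11 sites were called higher with ERβ (at DUSP1, DUSP2, DUSP4 and DUSP6) and 0 lower, against 31.8% of all tested bins called higher and 3 bins lower. The sites' median difference was 0.64 against 0.48 over all bins, and ERβ and mock libraries did not overlap at 6 sites, against 42.8% of all tested bins. Of the 4 called sites, 3 were listed in SW480 ERβ alone, as were 7 of the 11 sites. Nothing is therefore read from the share called, from the sites' median or from the sites without overlap. Of the 5 sites kept on the 12-library mean, 1 was called higher. After scaling to an equal median over the tested bins, 1 of the 11 sites, the DUSP4 site 22.2 kb upstream, was called higher, against 3.48% of all bins, and the genome counts were 682 bins higher and 179 lower in place of 6223 and 3. The difference was positive at 10 of the 11 sites before this scaling and at 7 after it, with DUSP16, the DUSP6 site 200 bp upstream and the DUSP4 site 39.8 kb upstream turning negative.

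Same-numbered mock and ERβ libraries of a line deviated together, with all 6 correlations above 0.1, although in HT29 replicates 2 and 3 correlated across numbers as well. A fit with the replicate number as a block changed some calls. Most of the sites it called, as given next, were listed in SW480 ERβ alone, so nothing is read from their shares. With the replicate block, 7 sites were called higher in SW480 ERβ in place of 4, against 46.3% of all bins, adding DUSP5 (adjusted p = 0.0163), DUSP6 at 1.6 kb (adjusted p = 0.0111) and DUSP1 at 1.3 kb upstream (adjusted p = 0.0303, limma). The ERβ difference was called as larger in SW480 than in HT29 at 6 sites in place of 1, against 47.3% of all bins with the block and 7.82% without it, and the 5 added were the DUSP6 sites at 1.6 and 21.8 kb (adjusted p = 4.5e-04 and 0.00183), DUSP5 (0.00996), the DUSP1 downstream site (0.0205) and DUSP2 (0.0451, limma). Under the equal-median scaling 0 of the 11 sites were called in this comparison, with 235 bins of the genome larger in SW480 (1.20%) and 30 smaller, and the difference was positive at 5 sites in place of 11.

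**Figure D4:**
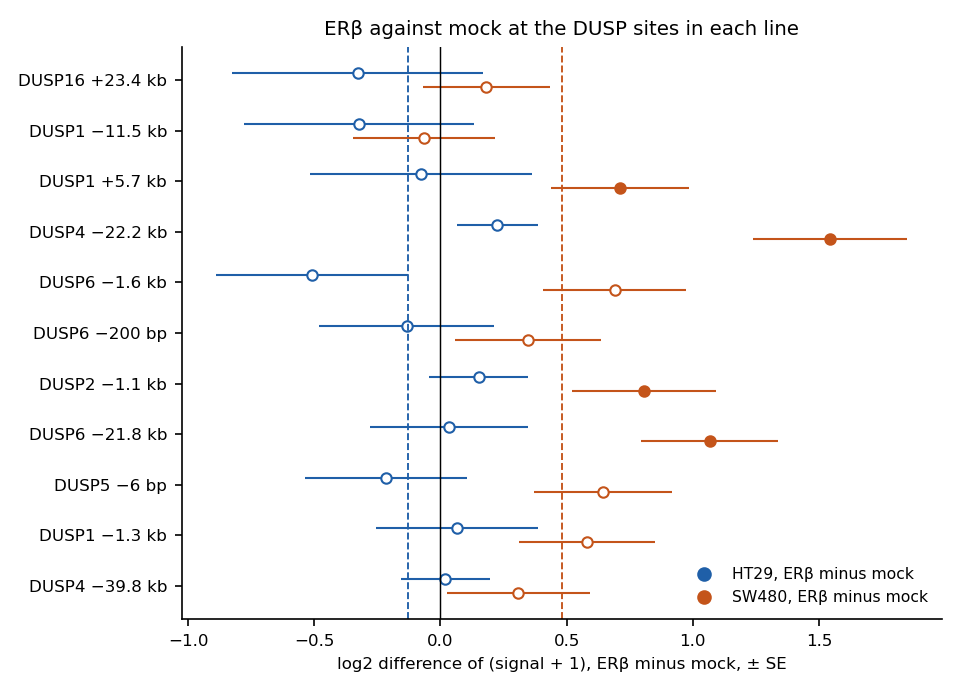
Difference between ERβ and mock cells in the log2(signal + 1) of the summit bin, with its SE from limma, for the 11 sites in HT29 and SW480. Filled points were called at an adjusted p under 0.05, and dashed lines mark the median over all 19580 tested bins, -0.13 in HT29 and 0.48 in SW480.

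Between the lines, DUSP16 was higher in HT29 and DUSP2 higher in SW480 in both conditions. Both DUSP4 sites were also called higher in SW480, over an input 2.27 times as high there, and after division by the input the differences in mock cells were 0.35 at 22.2 kb and -0.03 at 39.8 kb, both within the pooled SD of the libraries (0.506 and 0.547). In ERβ cells they were 1.74 at 22.2 kb, with a pooled SD of 0.338, and 0.45 at 39.8 kb, with a pooled SD of 0.758. In mock cells 3 sites were called higher in SW480 (DUSP2 and both of DUSP4), against 8.18% of all tested bins, and 2 lower (DUSP16 and the DUSP1 downstream site), against 28.3%. In ERβ cells 5 sites were called higher in SW480 (DUSP2, both of DUSP4, and DUSP6 at 1.6 and 21.8 kb), against 27.1% of all bins, and 1 lower (DUSP16), against 8.98%. Of these 5, 4 were listed in SW480 ERβ alone, as were the 3 called higher in mock cells. DUSP16 was listed in the HT29 groups alone. Nothing is therefore read from the shares of sites called or without overlap between the lines, also with equal medians. Of the 5 sites kept on the 12-library mean, 1 was called higher and 1 lower in SW480 mock and 2 higher and 1 lower in SW480 ERβ. The mock libraries of the lines did not overlap at 2 sites higher and 1 lower in SW480, with 11.7% and 36.4% of all bins, and the ERβ libraries at 5 higher and 1 lower, with 31.1% and 11.6%. With equal medians over the tested bins, the called bins of the genome were 4790 higher and 4401 lower in SW480 mock in place of 1601 and 5539, and 5145 and 4762 in ERβ cells in place of 5302 and 1758. The sites called were then 4 higher and 1 lower in mock cells, against 24.5% and 22.5% of all bins, and 4 higher and 2 lower in ERβ cells, against 26.3% and 24.3%, and DUSP16 was the lower one in mock cells and, with the DUSP1 site 11.5 kb upstream, in ERβ cells. The DUSP1 downstream call, at a difference of -0.86 (adjusted p = 0.0211), was lost without HT29 mock replicate 1, where the difference was -0.44, and without any 1 of the SW480 mock libraries, with an adjusted p of up to 0.154 (limma). The calls in ERβ cells at both DUSP6 sites and at the DUSP4 site 39.8 kb upstream were lost without replicate 2 or 3 of either line, with adjusted p of up to 0.259, 0.265 and 0.271 (limma).

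The promoters, taken as the 1 kb before each annotated start and the first 100 bp after it, were fixed by annotation and not by signal, and their values rest on no listing. No DUSP promoter was called in the comparison of SW480 ERβ with mock cells, and DUSP2 had the largest difference of the 7. Its promoter signals were 0.843, 0.439 and 0.755 in HT29 mock and 0.490, 0.479 and 0.662 in HT29 ERβ, and 0.604, 1.10 and 0.710 in SW480 mock and 1.37, 1.78 and 2.11 in SW480 ERβ. The SW480 ERβ libraries lay above all the others. At DUSP1 (0.894 to 1.37 against 0.760 to 0.881) and DUSP4 (0.879 to 1.21 against 0.754 to 0.797) the SW480 ERβ libraries also lay above all SW480 mock libraries, with adjusted p = 0.264 and 0.333 (limma), as did the SW480 ERβ libraries at 14.4% of all promoters. The DUSP2 difference in SW480, 0.61 (SE 0.126), gave an adjusted p = 0.0546 (limma), and 0.0130 with the replicate block, where 2.13% of all promoters were called higher. Its ERβ difference exceeded that of HT29 by 0.73 (SE 0.181), with an adjusted p = 0.145, and 0.00182 with the replicate block (limma), where 3.26% of all promoters were called. In the fits without the block, 0 of the 7 DUSP promoters were called in HT29 or in SW480, or for the difference between them, against 0%, 0.552% (higher) and 0.0630% (higher) of the 19036 promoters tested, and 3 of the 7 in SW480 and 2 in the difference had an unadjusted p under 0.05, as had 2618 and 1751 of the 19036.

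Between the lines, 0 of the 7 promoters were called in mock cells, against 16.6% of all promoters called higher and 3.84% lower in SW480, with 1 at an unadjusted p under 0.05, as had 6562 of the 19036. In ERβ cells 3 were called higher in SW480 and 0 lower, against 25.2% and 2.00% of all promoters. These were DUSP2 (difference 0.83, SE 0.133, adjusted p = 9.5e-04), DUSP4 (0.52, SE 0.112, adjusted p = 0.00451) and DUSP5 (0.40, SE 0.118, adjusted p = 0.0219, limma), the last of these lost without HT29 ERβ replicate 2 or SW480 ERβ replicate 2 or 3. The DUSP4 promoter shares the lower input of its window in HT29, and divided by that input, an alternative chosen after the data were seen and given with no test, its difference was 0.15 in ERβ cells and -0.27 in mock cells, in place of 0.52 and 0.28. The DUSP6 promoter had the highest mean over the 12 libraries, 1.21, and DUSP10 the lowest, 0.607, with inputs of 0.564 to 0.683 at DUSP10. The DUSP16 promoter, 23.4 kb from the intron site, had group means of 0.777, 0.621, 0.761 and 0.764 in HT29 mock, HT29 ERβ, SW480 mock and SW480 ERβ, so the difference between the lines at the intron was not seen at the start.

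**Figure D5:**
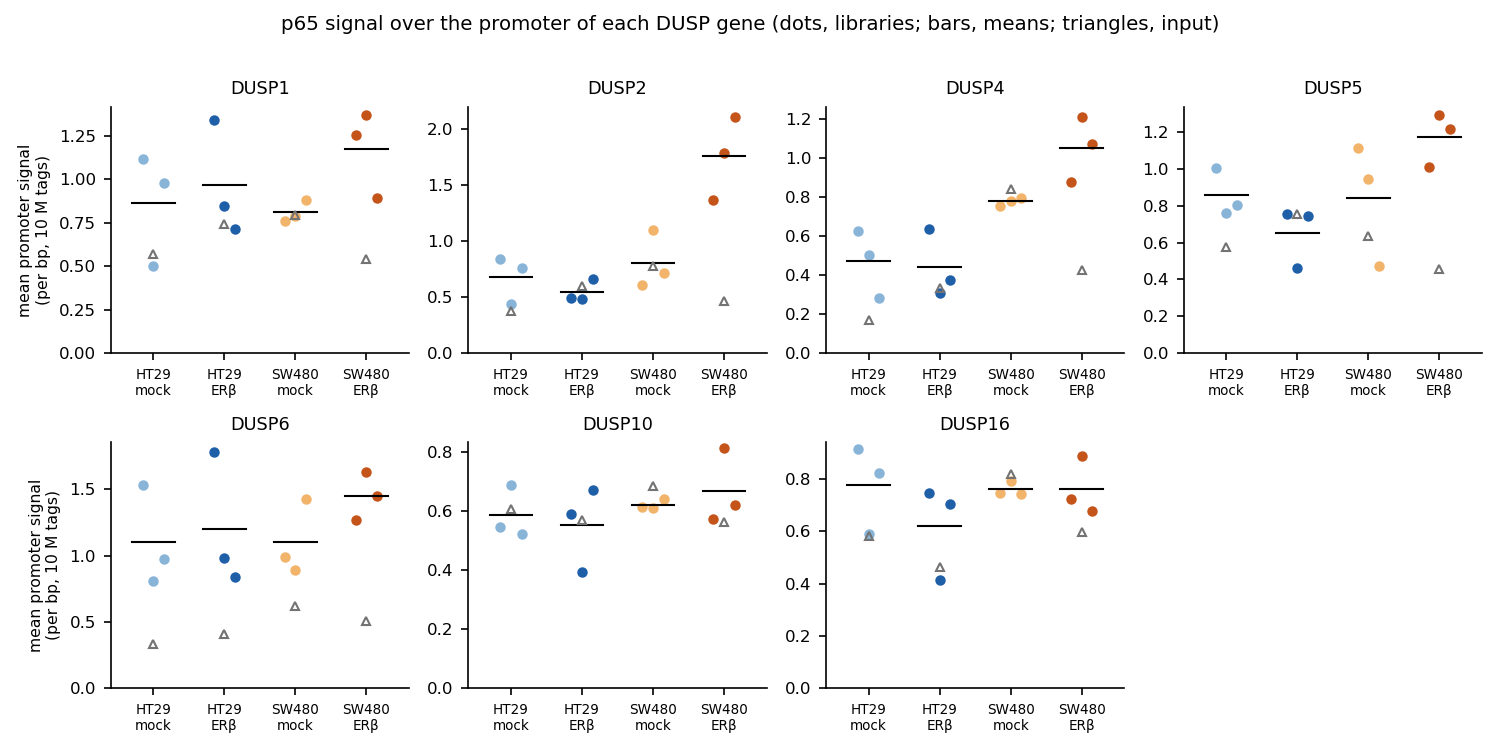
Mean signal over the promoter of each analysed gene (per bp at 10 M tags, linear axes from 0) in the 3 libraries of each group (dots) with their mean (bars) and the input (triangles). The SW480 ERβ libraries of DUSP2, at 1.37, 1.78 and 2.11, lie above all other libraries of that promoter.

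The kinases that the phosphatases act on, the kinases above them, further dual-specificity phosphatases and other feedback inhibitors were read in the same way, as a list of 35 genes. DUSP14 of this list was not analysed here. Of the other 34, 11 had a listed bin in HT29 mock, 10 in HT29 ERβ, 5 in SW480 mock and 12 in SW480 ERβ, and 15 in any group. The shares of all protein-coding genes were 22.0%, 16.0%, 7.73% and 32.3% in the same order. The 4 genes whose windows held the highest bins, listed or not, were MAP3K8, MAP2K2, MAP2K3 and MAP3K5. MAP3K8, a kinase upstream of ERK that NFκB precursor protein holds in check, reached 11.2 in SW480 ERβ. MAP2K2, a kinase of ERK, reached 9.89 in HT29 mock. MAP2K3, a kinase of p38, reached 9.82 in SW480 ERβ. MAP3K5, a stress-activated kinase upstream of JNK and p38, reached 9.30 in SW480 ERβ. The highest DUSP16 bin, at 10.9, stood among these. Whether the bins lie nearest to these 4 genes was not checked. The remaining MAP kinase phosphatases, DUSP7 and DUSP9, had 0 listed bins. Of the other dual-specificity phosphatases, DUSP18 had 1 listed bin in SW480 ERβ, and DUSP22 had 1 in HT29 ERβ and 3 in SW480 ERβ. DUSP3 and DUSP19 had 0. At the 33 promoters of this list that were tested, 0 were called in either line for ERβ against mock, 5 were higher and 1 lower in SW480 mock than in HT29 mock, and 10 were higher and 0 lower between the ERβ cells. Of all promoters, 16.6% were higher and 3.84% lower between the mock cells and 25.2% and 2.00% between the ERβ cells. The windows of MAPK11 and MAPK12 overlap and share their bins.

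As a description over the 12 ChIP libraries, with no test, the promoters most like the DUSP5 start in their pattern were SLC12A2 (Pearson's r = 0.875), ZNF33B (0.859) and SLC37A4 (0.834), of 1409 promoters with a mean of at least 1. Those most like the DUSP16 intron site were SAMD12 (r = 0.973), ATAD2 (0.971) and CHRAC1 (0.970). The libraries share line, condition and overall enrichment, which enters every such correlation. At the 3 promoters like DUSP16 the input itself was 0.277, 0.341 and 0.336 times as high in SW480 as in HT29, unlike the DUSP16 window, where it was 1.23 times as high.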

How the data were processed

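The 16 deposited files are coverage signal tracks, 12 of p65 ChIP-Seq and 4 of input. The authors mapped unique reads to hg38 (GRCh38) with STAR and made the tracks with HOMER, as tag density scaled to 10 M tags and fragments of 100 bp, with stretches under 0.05 absent. Versions are not given in the sources used here. Reads per library were not recovered from the scaled signal, so no counting interval is given.

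Members and lists were chosen with earlier results of these data known. Mean signal per 200-bp bin was computed (Python 3.11.15, numpy 2.4.6), genes and starts were taken from GENCODE 44, and motifs were searched in the hg38 sequence. Since the signal is no count, log2(signal + 1) was fitted with limma 3.58.1 (R 4.3.3, mean-variance trend, 6 libraries per comparison, 12 for the difference between lines) over the 19580 bins with a 12-library mean of at least 1 and at least 2 times the mean input. Promoters of 19036 genes were fitted without a filter. P-values were adjusted by Benjamini-Hochberg over all bins or promoters, called under 0.05, and the fit was tested on simulated data. The study's methods call the replicates biological. A shared replicate number pairs mock and ERβ libraries of a line: the 6 correlations of deviations from the group means were 0.118 to 0.479, and differently numbered pairs gave -0.326 to 0.205, the highest between HT29 mock 2 and ERβ 3. Between lines they were -0.0534 to 0.0471. The genes and sites named are all members, all sites, and the 4 pathway genes with the highest bin, with some others of that list. Alternatives were pseudocount, filters, scaling, input subtraction, shifted bins, replicate block, shared fit, other listing limits and omission of each library.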

Additional observations from a re-analysis of the deposited data

Results flagged for a closer look

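The DUSP4 site 22.2 kb upstream of the start was singled out because its ERβ difference differed between the lines in a test of that difference: 1.55 in SW480 and 0.23 in HT29 on the log2(signal + 1) scale, a difference of 1.32 (SE 0.420, adjusted p = 0.0323, limma). All 3 SW480 ERβ libraries, at 6.06 to 7.82, lay above the 3 SW480 mock libraries, at 0.717 to 3.40. As ratios of the group means, ERβ over mock was 3.65 in SW480 and 1.73 in HT29. The site was listed in SW480 ERβ alone and so was chosen for its height in the group tested, and the test is not independent of that choice. The call held with the replicate block (adjusted p = 9.3e-05) and was lost with the equal-median scaling (difference 0.61, adjusted p = 0.463, limma), with a pseudocount of 0.5, with the weaker filter, with bins shifted by 100 bp and in 7 of the 12 omissions of 1 library. The input over the DUSP4 window was 2.27 times as high in SW480 as in HT29, and its part in the result was not tested. Groups of 3 libraries were not searched for single outlying libraries.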

How the results depend on the processing

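The number of DUSP sites called depended on the filter, the scaling and the block. For SW480 ERβ against mock, 4 sites became 2 with the weaker filter (a mean of at least 0.5) and 2 of the 6 tested with the stricter one (a mean of at least 2), 1 with equal medians over the tested bins, 7 with the input subtracted, 7 with the replicate block and 2 to 8 when 1 library was left out. Between the mock lines, 5 sites became 3 with the stricter filter, 2 with the input subtracted, 3 with the replicate block and 2 to 5 without 1 library. Between the ERβ lines, 6 became 2 with the stricter filter, 3 with the replicate block and 3 to 8 without 1 library. For the difference of the ERβ differences, 1 became 0 with a pseudocount of 0.5, with the weaker filter and with equal medians, 4 with the input subtracted, 6 with the replicate block, 0 to 4 without 1 library, and 2 without replicate 1 of both HT29 groups, an alternative chosen after the data were seen. Replicate numbers of the 2 lines did not vary together, so the block between lines joins libraries that share only a number. HT29 ERβ against mock gave 0 sites and 0 DUSP promoters under every alternative run.

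Among promoters, 0 calls for SW480 ERβ against mock became 1 with the replicate block, 1 with promoters of a mean of at least 0.5 and 0 to 1 without 1 library. Between the mock lines 0 became 1 with that filter and 0 to 1 without 1 library, and for the difference of differences 0 became 1 with the replicate block and 0 to 1 without 1 library. Listed bins at limits of 3 and 6 times input were 3, 3, 0 and 7 in HT29 mock, HT29 ERβ, SW480 mock and SW480 ERβ. Bins shifted by 100 bp gave 3 in HT29 ERβ, and the mean of the 4 inputs gave 2 in SW480 mock. Without 1 library the counts ran from 3 to 7 in HT29 ERβ and from 0 to 1 in SW480 mock. The DUSP4 site 39.8 kb upstream reversed between the mock lines, from 0.58 to -0.026, when divided by the input over the window. Of the 921 single site differences under alternatives, 757 were rated the same. This means an unchanged direction and side of the threshold or, after division by the input with no test, a shift under the pooled SD. Most site differences were not called in the main fit, so many of the 757 only stayed uncalled. A call was lost in 67 and gained in 42.

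Called bins of the genome for SW480 ERβ against mock fell from 6226 to 2574 with the stricter filter, 861 with equal medians and 4053 in a fit of all 12 libraries, and were 9714 with the input subtracted and 2516 to 12510 without 1 library. For the difference of differences, 1531 became 478 with the stricter filter, 265 with equal medians, 5584 with the input subtracted, 9260 with the replicate block, 3364 without replicate 1 of both HT29 groups and 469 to 5944 without 1 library. HT29 gave 144 with the replicate block, 17 without replicate 1 of both groups and 15 with the weaker filter in place of 0. The stricter filter left 2505 of 7140 between the mock lines and 2208 of 7060 between the ERβ lines. The weaker one gave 284320 and 247575 of the 1146518 bins it tests in place of 19580. The block left 4080 between the ERβ lines. Omission of 1 library gave 4557 to 9194 between the ERβ lines and 4763 to 7440 between the mock lines. Except where an alternative tests fewer bins or libraries, the cause was not tested. The scaled tracks do not carry the depth of the libraries, and 3 libraries per group limit the precision.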
